A study of Rattus norvegicus with 12 samples.

Results

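Oxt, Avp and Pomc encode the precursors of peptide hormones, and they were followed here through the brain and testis of rats with and without a human DNMT3A transgene. The genes were taken by identifier: ENSRNOG00000021225 for Oxt, ENSRNOG00000021229 for Avp and ENSRNOG00000012686 for Pomc, which are 3 of the 25908 genes in the deposited table. The table gives identifiers without names, and the pairing with these symbols came with the choice of the genes. All rats were adult male Sprague Dawley animals aged 15 weeks. The groups were wild-type brain, hDNMT3A brain, wild-type testis and hDNMT3A testis, with 3 libraries in each. DNMT3A is an enzyme that methylates cytosines of DNA, mostly at CG pairs, that carry no methyl group yet. The sources used here do not give the promoter that drives the transgene, the part of the brain sampled or the number of lines. Whether the 3 samples of a group came from separate rats is not stated, so each p-value below reflects only how much these samples vary, and that variation may be technical.

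In the brain, oxytocin is made by large neurons of the paraventricular and supraoptic nuclei of the hypothalamus, which send it to the posterior pituitary and from there into the blood. Vasopressin is made by neighbouring neurons of the same nuclei and by the suprachiasmatic nucleus, and it acts on water retention in the kidney. Each of these hormones is cut from a precursor that also holds a neurophysin, its carrier. Pomc gives a longer precursor, which is cut into adrenocorticotropic hormone, melanocyte-stimulating hormones and beta-endorphin. It is known for the pituitary and for the arcuate nucleus of the hypothalamus. In rodent testis, Pomc is known to give shortened transcripts that start within the gene.

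Promoter sequences are shown because Avp and Pomc were each higher in testis than in brain and Oxt was not, and because the transgene encodes an enzyme that acts on CG pairs. They are the 250 bases before the annotated start of each gene, from RefSeq (build GRCr8, a later build than the one named for the deposited values), written 5′ to 3′ along the gene. All 3 genes were matched by symbol. Capitals mark TGACC, the core of many nuclear receptor sites, TGACG, the core of CREB sites, and TATAAA, each searched on both strands. No marked matches overlap. Oxt and Avp are neighbours on chromosome 3 with 0 annotated genes between them, on opposite strands, and Pomc lies on chromosome 6.
Oxt, chr3:138235504-138235753, plus strand: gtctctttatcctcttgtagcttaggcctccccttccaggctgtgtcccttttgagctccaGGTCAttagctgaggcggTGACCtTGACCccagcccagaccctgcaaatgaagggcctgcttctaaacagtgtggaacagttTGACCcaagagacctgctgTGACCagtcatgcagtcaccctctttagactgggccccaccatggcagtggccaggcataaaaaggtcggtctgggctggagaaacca
Avp, chr3:138248523-138248772, minus strand: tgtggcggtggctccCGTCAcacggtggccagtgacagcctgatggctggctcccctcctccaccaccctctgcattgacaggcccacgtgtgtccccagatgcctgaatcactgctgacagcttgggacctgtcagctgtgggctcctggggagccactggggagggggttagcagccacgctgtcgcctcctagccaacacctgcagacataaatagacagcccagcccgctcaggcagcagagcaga
Pomc, chr6:32659103-32659352, plus strand: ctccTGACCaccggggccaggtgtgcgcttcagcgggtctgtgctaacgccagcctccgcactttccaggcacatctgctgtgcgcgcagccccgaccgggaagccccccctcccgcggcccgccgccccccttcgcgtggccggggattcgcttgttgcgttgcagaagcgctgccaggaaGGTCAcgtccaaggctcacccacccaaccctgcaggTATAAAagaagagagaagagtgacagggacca

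The Oxt window held 5 TGACC matches, the Pomc window 2 and the Avp window 0, where 35.4% of 33469 promoter windows of the same length held at least 1. TGACG was found at 1 place before Avp and was in neither of the other windows, against 18.2% of all windows. TATAAA was found at 1 place before Pomc, against 12.9% of all windows. The E-box CANNTG, not marked in the sequences, occurred 1 time before Oxt, 4 times before Avp and 2 times before Pomc, and 65.5% of all windows held it. CG pairs numbered 2 in the Oxt window, 7 in the Avp window and 20 in the Pomc window, where the median window had 5. Fewer CG pairs were held by 18.1%, 54.8% and 83.3% of all windows, in that order. These matches describe letters in the windows, and the shares do not say how many windows held several matches. The Pomc window lies before the annotated start, which need not be where its testis transcripts start. No methylation was measured in the files used here.

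The brain libraries held very little RNA of the 3 genes. FPKM, the fragments of a gene scaled to its length and to the depth of the library, is a level scaled for gene length, so it can be compared between genes. Because each FPKM value is a whole multiple of what 1 read is worth, the reads behind each value were recovered (100% of the genes came out whole, within 0.00024 reads). The totals were 14004547 to 15700711 reads per brain library and 14576668 to 16112149 per testis library. The 6 brain libraries together held 8 reads of Oxt, 30 of Avp and 77 of Pomc. The 6 testis libraries held 2, 115 and 1182.

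In the order of brain levels, Pomc was highest (0.762 ± 0.217 FPKM), followed by Avp (0.570 ± 0.416) and Oxt (0.165 ± 0.099; SD, n = 6 for each). Pomc and Avp overlapped from library to library, as did Avp and Oxt, while each Pomc value lay above each Oxt value. None of the 3 reached a mean of 1 FPKM in brain, the level set for testing, and 13827 genes did. The share of listed genes with a lower brain mean was 44.3% for Pomc, 41.8% for Avp and 31.4% for Oxt, and the median of the genes at or above 1 FPKM was 10.5 FPKM. In testis the order was the same but the steps were larger: 11.5 ± 3.25 FPKM for Pomc, 2.18 ± 0.672 for Avp and 0.041 ± 0.101 for Oxt (SD, n = 6). There the values of no pair of the 3 genes overlapped. Pomc and Avp passed the level for testing in testis, and Oxt did not.

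The 3 genes are known as hypothalamic transcripts, but they were not high in these brain libraries: the brain mean of each was under 1 FPKM, and Pomc and Avp were higher in testis. The part of the brain sampled is unknown, and these levels do not show which cells the transcripts came from. In whole tissue, fewer cells of a type and less RNA per cell cannot be told apart. Lists of other hypothalamic, pituitary and regional marker genes had been drawn up by symbol, but the reference table matched 0 of the 25908 identifiers, so they were not analysed here.

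**Figure D1:**
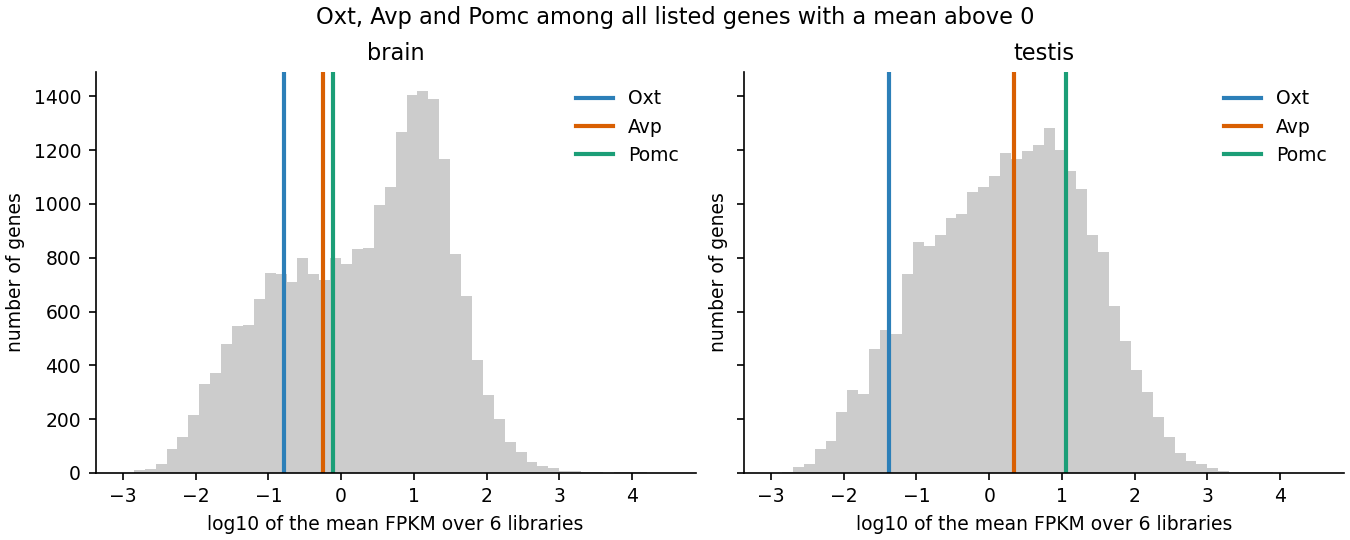
Mean FPKM of all listed genes over the 6 brain libraries (left) and the 6 testis libraries (right), on a log10 axis, with genes at a mean of 0 left out; coloured lines mark Oxt, Avp and Pomc. In brain the 3 lines lie between 0.165 and 0.762 FPKM, left of the main peak of genes, and in testis Pomc lies at 11.5 FPKM, inside the bulk of expressed genes.

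Oxt, the oxytocin precursor, was at the edge of detection everywhere. Its wild-type brain libraries stood at 0.250, 0.134 and 0.246 FPKM, from 2, 1 and 2 reads, and its hDNMT3A brain libraries at 0.123, 0.239 and 0 FPKM, from 1, 2 and 0 reads. The genotypes overlapped, and no library exceeded the floor of 3 reads, which is worth 0.358 to 0.401 FPKM in brain. All wild-type testis libraries had 0 reads, where the floor of 3 reads is worth 0.352 to 0.385 FPKM. The upper ends of their exact intervals, which cover counting error only, were 0.433 to 0.474 FPKM. Of the hDNMT3A testis libraries, replicate 1 had 2 reads (0.248 FPKM) and the others had 0.

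Avp, the vasopressin precursor, varied most among the brain libraries. Wild-type brain held 0.695, 0.124 and 1.14 FPKM, from 6, 1 and 10 reads. The hDNMT3A brain libraries held 0.114, 0.886 and 0.459 FPKM, from 1, 8 and 4 reads. Wild-type brain replicate 2 and hDNMT3A brain replicate 1, with 1 read each, were the low libraries, and wild-type replicate 3 was the highest. The ranges of the genotypes overlapped. In testis, Avp stood at 2.52, 1.79 and 0.980 FPKM in wild type (22, 15 and 9 reads). It stood at 2.54, 2.58 and 2.70 FPKM in hDNMT3A rats (22, 22 and 25 reads). Each hDNMT3A testis value lay above each wild-type one, but the nearest libraries of the genotypes, both replicate 1, had 22 reads each and differed in FPKM only through the depth of the library.

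Pomc, the precursor of adrenocorticotropic hormone and beta-endorphin, was low but present in each brain library. Its wild-type brain values were 0.955, 0.639 and 1.00 FPKM (16, 10 and 17 reads), and its hDNMT3A values 0.823, 0.741 and 0.413 FPKM (14, 13 and 7 reads). The lowest library was hDNMT3A replicate 3, and the genotypes overlapped. In testis it reached 9.89, 12.3 and 11.7 FPKM in wild type (168, 201 and 209 reads). The hDNMT3A testis values, 7.30, 10.5 and 17.1 FPKM (123, 174 and 307 reads), lay on both sides of the wild-type ones, with replicate 1 lowest and replicate 3 highest of all 6 testis libraries.

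**Figure D2:**
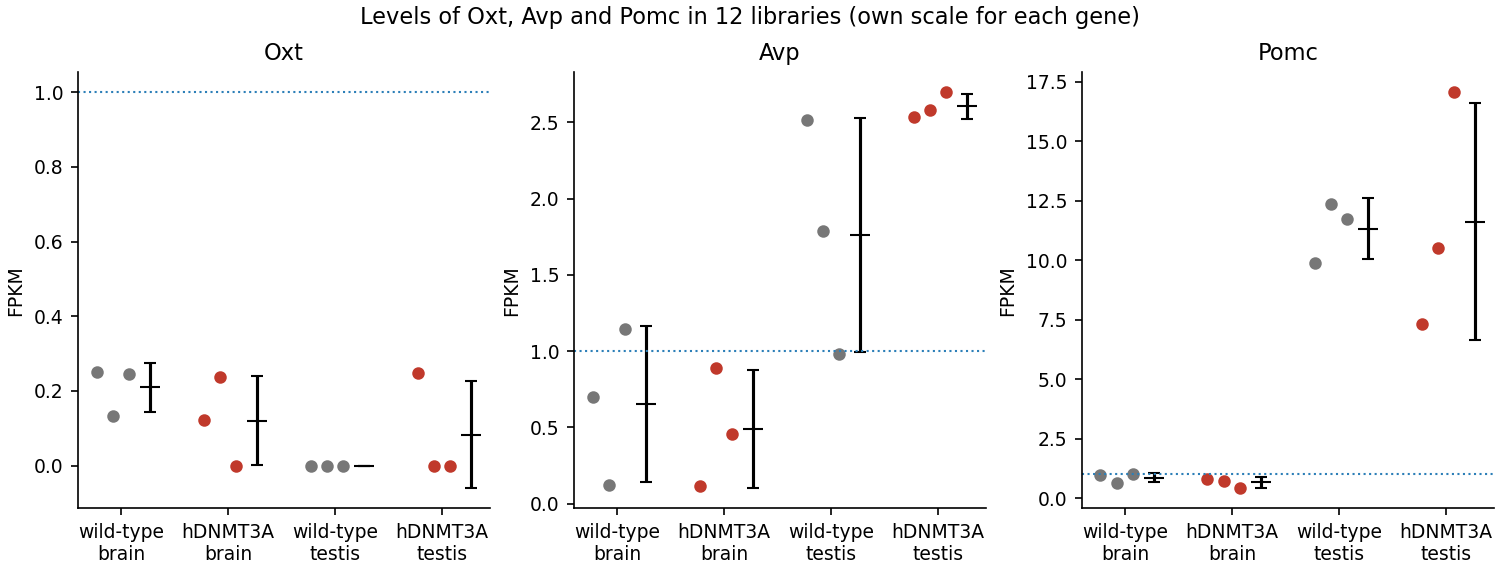
FPKM of Oxt, Avp and Pomc by group, where each point is a library (wild type in grey, hDNMT3A in red), bars for the mean ± SD over the 3 libraries of a group, a scale of its own for each gene, and a dotted line at 1 FPKM. The 3 genes lie near or under 1 FPKM in brain, and Pomc rises to between 7.30 and 17.1 FPKM in testis.

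The comparison of tissues asked whether the 3 genes were brain transcripts in these samples. Pomc was higher in testis. Each testis library lay above each brain library, as was so for 30.7% of all listed genes, and the mean was 15.1-fold higher (11.99 to 19.3 as the 95% counting interval of the summed reads, which covers counting error only). Avp was 3.83-fold higher in testis (counting interval 2.51 to 5.84), with 1 overlap: wild-type testis replicate 3, at 0.980 FPKM, lay below wild-type brain replicate 3, at 1.14 FPKM. Exact two-sided permutation tests of 6 testis against 6 brain libraries gave p = 0.0022 for Pomc, the smallest that this design allows, and p = 0.0043 for Avp. Adjusted over the 3 genes both were 0.0065, and Oxt had a permutation p of 0.067. If same-numbered samples came from the same rat, which the labels do not say, these libraries are not independent between tissues.

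Within each genotype, Pomc was called by limma, a linear model that shares information on spread across genes, at a Benjamini-Hochberg adjusted p under 0.05. The brain minus testis difference on the scale of log2(FPKM + 0.5), which understates the change of low genes, was -3.12 (SE 0.15, adjusted p = 1.71e-06) in wild type. It was -3.32 (SE 0.30, adjusted p = 1.38e-05) in hDNMT3A rats. For Avp the difference was -1.73 (SE 0.28, adjusted p = 0.00055) in hDNMT3A rats. In wild type it was -1.02 (SE 0.42) and missed the threshold (limma, adjusted p = 0.054). Calls with the higher level in testis were common: 41.5% of 16115 genes tested in wild type and 41.5% of 16102 in hDNMT3A rats, so these calls set the direction of each gene and do not make the genes unusual. These differences stand against a median over all genes tested of 0.23 in wild type and 0.21 in hDNMT3A rats, in the direction of brain. When a median-ratio scaling removed that shift, the Avp difference in wild type was -1.15 and passed (limma, adjusted p = 0.033).

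The wild-type Avp difference rested on single libraries. It passed without wild-type brain replicate 3 (-1.33, adjusted p = 0.026 by limma) and without wild-type testis replicate 3 (-1.30, adjusted p = 0.035). Without wild-type brain replicate 2 it was -0.63, with an adjusted p of 0.12. That library was low in Avp (0.124 FPKM, from 1 read). It also stood apart in transcripts of testis. For 203 genes chosen as high in testis (100 FPKM or more) and near absent in brain (median 0.5 FPKM or less), its level was 1.59% of that in testis, while the other brain libraries had 0.051% to 0.330%. The same share of the testis mean is worth 0.183 FPKM of Pomc, 28.6% of its level in wild-type brain replicate 2. For Avp it is worth 0.035 FPKM, 28.0% of its level there and less than the 0.124 FPKM of 1 read. In the other brain libraries it came to at most 4.59% of the Pomc level and 1.04% of the Avp level. Without wild-type brain replicate 2 the Pomc difference in wild type was -2.99, against -3.12. Whether testis transcripts in that library moved the Avp or Pomc difference was not tested.

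Oxt had more reads in brain than in testis, but few in either. The brain libraries held 8 reads and the testis libraries 2, a ratio of 4.06 whose counting interval, 0.811 to 39.3, includes 1. In wild type, 5 reads stood against 0, and the counting interval of brain over testis starts at 0.948, so it includes 1 as well. Oxt was under the level for testing. Without that filter limma called it higher in wild-type brain (difference 0.50, adjusted p = 0.0043), as it did 35.6% of 24788 genes. The hDNMT3A rats gave a difference of 0.10 (limma, adjusted p = 0.70), which was -0.035 without hDNMT3A brain replicate 2. The call in wild type rests on 5 reads.

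**Figure D3:**
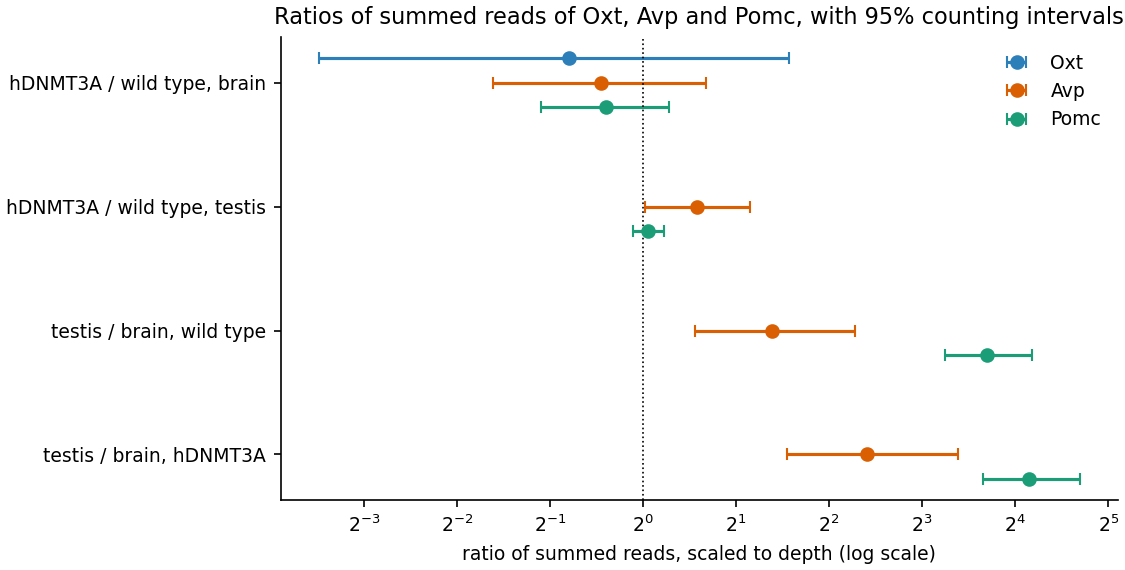
Ratio of the reads of Oxt, Avp and Pomc summed over 3 libraries a group and scaled to depth, on a log axis with 95% counting intervals, for hDNMT3A over wild type in each tissue and for testis over brain in each genotype; ratios with 2 or fewer reads in a group are left out. Pomc and Avp lie right of 1 in the tissue rows, and the intervals of the genotype rows include 1 except that of Avp in testis, which starts at 1.01 and leaves out the spread between replicates.

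The comparison of genotypes in brain asked whether the transgene went with a change of these genes. All 3 had lower means in hDNMT3A brain: 0.120 ± 0.119 against 0.210 ± 0.066 FPKM for Oxt, 0.486 ± 0.387 against 0.654 ± 0.511 for Avp and 0.659 ± 0.217 against 0.865 ± 0.197 for Pomc (SD, n = 3 in each group). These differences were within the spread between libraries, and that of Avp changed sign without wild-type replicate 3 (0.11) or hDNMT3A replicate 1 (0.11). Exact two-sided permutation tests gave p = 0.2, 0.7 and 0.3, where 3 against 3 libraries cannot go below 0.1. The genes were under the level for testing. When that filter was left out, limma gave differences of -0.21 (SE 0.17), -0.20 (SE 0.44) and -0.24 (SE 0.22), with adjusted p-values of 0.84, 0.94 and 0.85. In that fit 0.0578% of 22487 genes were called, and none of the 3 was among them.

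The depth limits what could have been seen in brain. The ratio of hDNMT3A to wild-type reads was 0.758 for Pomc (34 against 43 reads, counting interval 0.469 to 1.22) and 0.733 for Avp (13 against 17 reads, 0.328 to 1.60). For Oxt, with 3 against 5 reads, the interval ran from 0.089 to 2.96. These intervals leave out the spread between libraries, so they are not limits of detection. Changes inside them, and some outside them, could have been missed.

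In testis, Avp averaged 2.61 ± 0.084 FPKM in hDNMT3A and 1.76 ± 0.768 in wild-type rats (SD, n = 3 in each), a 1.48-fold difference. The genotypes did not overlap, as was so for 17.7% of the 14572 genes tested. The difference was 0.52 on the log2 scale (SE 0.26) and was not called (limma, adjusted p = 0.53), while 0.576% of the genes tested were. Its exact permutation p was 0.1, the smallest the design allows, and 0.6 after adjustment over the 6 genotype tests of these genes. Leaving out 1 library gave differences from 0.24 (without wild-type testis replicate 3) to 0.75 (without wild-type testis replicate 1), none of them called (limma, adjusted p from 0.41 to 0.76). Pomc averaged 11.6 ± 4.97 and 11.3 ± 1.28 FPKM, with a difference of -0.04 (SE 0.27) that was not called (limma, adjusted p = 0.97). The sign of the Pomc difference depended on the libraries used: it was 0.24 without hDNMT3A testis replicate 1 and -0.35 without replicate 3. For Oxt both genotypes were at or under the floor in testis, and no fold is given.

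The interaction asked whether the genotype difference in brain differed from that in testis. None of the 3 genes passed the filter, which asked for a mean of 1 FPKM in each tissue. Without it, the difference in brain minus that in testis was -0.40 (SE 0.25) for Oxt, -0.71 (SE 0.56) for Avp and -0.21 (SE 0.38) for Pomc. The Pomc value turned to 0.10 without hDNMT3A testis replicate 3. The limma adjusted p-values were 0.78, 0.82 and 0.91, in a fit that called 0.398% of 25908 genes. The Avp call between tissues in hDNMT3A rats and its near miss in wild type are thus not shown to differ.

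The spread between brain libraries was taken as a description of how evenly the sampled tissue carried these transcripts. Avp had the widest spread of the 3, from 0.114 to 1.14 FPKM over the 6 libraries, and an SD within genotype of 0.65 on the log2 scale. Its read counts varied 2.99 times as much as counting alone gives. Pomc spanned 2.42-fold (SD 0.25) and varied 0.962 times as much as counting gives, and Oxt (SD 0.22) 0.560 times. For Pomc and Oxt the spread was no wider than counting gives, so variation between brain libraries beyond counting error was not detectable for them. The genes tested in brain had a median SD of 0.14. Their read counts varied a median of 3.84 times as much as counting gives, more than those of any of the 3 genes. That measure depends on read number, and the 3 genes had few reads in brain. In testis, Pomc varied 2.42 times as much as counting gives in wild type and 36.9 times in hDNMT3A rats, where replicate 3 was the high library. Avp varied 3.02 times as much in wild-type and 0.024 times in hDNMT3A testis. The median of the genes tested in testis, within genotype, was 3.13 times.

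**Figure D4:**
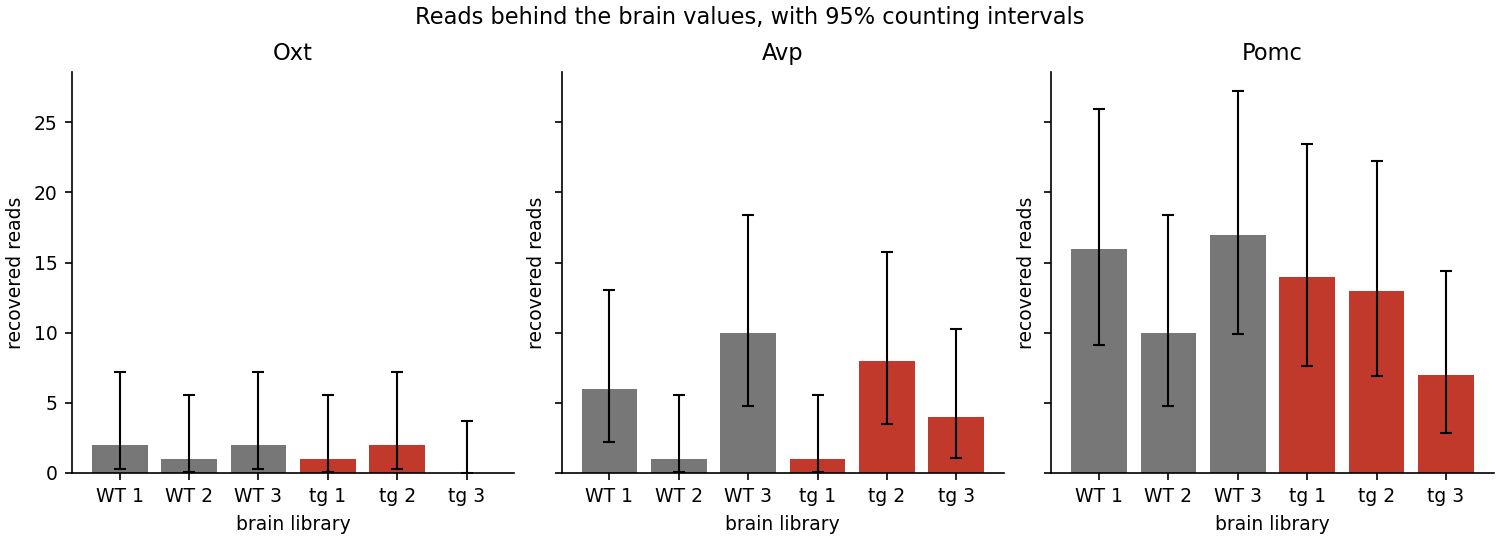
Reads of Oxt, Avp and Pomc in each brain library (grey bars, wild type, WT 1 to 3; red bars, hDNMT3A, tg 1 to 3), with exact 95% counting intervals as error bars. Oxt lies at 0 to 2 reads, Avp at 1 to 10 and Pomc at 7 to 17, and the intervals of the lowest and the highest library overlap for each gene.

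Whether the genes were high and low in the same brain libraries was examined over the 6 libraries on the log2 scale. Oxt and Pomc had a Pearson r of 0.89 (exact permutation p = 0.026, 0.079 adjusted over 3 pairs) and a Spearman rho of 0.77 (exact permutation p = 0.10, adjusted 0.26). Oxt and Avp had r = 0.55 (exact permutation p = 0.25, adjusted 0.37) and rho = 0.66 (p = 0.18, adjusted 0.26). Avp and Pomc had r = 0.39 (exact permutation p = 0.46, adjusted 0.46) and rho = 0.49 (p = 0.36, adjusted 0.36). No pair passed after adjustment. Without the 2 libraries farthest from the median of the first gene, r was 0.81, 0.94 and 0.81. With 0 to 2 reads of Oxt in a library, these values rest on single reads. In the 6 testis libraries Avp and Pomc had r = -0.11 (exact permutation p = 0.79) and rho = 0.086 (p = 0.92), a pair added after seeing the values. Leaving out wild-type replicates 2 and 3 there gave r = 0.89. In the libraries left, Avp ran only from 22 to 25 reads (2.52 to 2.70 FPKM), so this r rests on few reads too.

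The balance between the 3 genes within a brain library was compared as log2 ratios with 0.5 FPKM added to each gene, which draws the ratios of such low genes toward 0. No difference between the genotypes was detectable. The log2 ratio of Avp to Oxt on this scale was 0.60 ± 0.58 in wild type and 0.61 ± 0.55 in hDNMT3A brain (SD, n = 3), with an exact permutation p of 0.9. That of Pomc to Oxt differed by -0.04 (exact permutation p = 0.8) and that of Pomc to Avp by -0.05 (exact permutation p = 0.9). Adjusted over the 3 ratios each p was 0.9.

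Of 1529 genes that averaged 1 FPKM or more in brain and had at least a 1 log2 step between the highest and the lowest brain library, 19 followed Oxt with r of at least 0.9 over the 6 libraries, 8 followed Avp and 12 followed Pomc. The gene most like Avp was ENSRNOG00000050786 (r = 0.96), at 3.50, 2.42 and 5.48 FPKM in wild-type and 2.03, 5.31 and 3.66 FPKM in hDNMT3A brain. The gene most like Pomc was ENSRNOG00000052015 (r = 0.97), at 13.4, 3.15 and 14.8 FPKM in wild-type and 8.17, 4.35 and 1.59 FPKM in hDNMT3A brain. These genes carry no names in the files used here, and with 6 libraries and 1529 genes a high r is a description only.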

How the data were processed

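RNA was sequenced from brain and testis of wild-type and hDNMT3A rats, 12 libraries in 4 groups of 3. Per the labels' protocols, libraries were built from total RNA with an Illumina TruSeq kit. The authors deposited 1 table of FPKM values. Bowtie 1.0.1 and the build Rnor_6.0 stand in the submitters' processing notes, without their role. None of the sources used gives the annotation, counting tool or strand setting. The genes and lists were chosen with earlier results of these data known. Lists and names could not be matched (0 of 25908 identifiers), and no protein sequences were used.

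Whole reads came from the shortest gene length (up to 60000 bp) that made all 12 values of a gene whole: 534 bp for Oxt, 575 for Avp and 1117 for Pomc. Of 1000 genes moved by about 1%, 0% came out whole. On simulated tables the method returned the exact reads for 99.97% of genes. Between libraries of 1 group the read counts had a chi-square per gene of 4.79 to 14.2, above sampling noise. Each library is labelled as a sample of its own, and the chi-square cannot show whether these came from separate rats.

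Genotypes and tissues were compared on log2(FPKM + 0.5) by two-sided limma 3.58.1 tests (R 4.3.3; prior variance as a trend of mean level), keeping genes that averaged 1 FPKM or more. On simulated reads, 100 genes were changed 2-fold and 100 others 4-fold among 14580. The testis fit recovered 83 and 98 of them, with 10 false calls in all. The simulation gave all genes the same extra spread beyond counting, so it does not give the power for Avp or Pomc. Alternatives changed the pseudocount, filter, scaling, trend, model (voom on reads), libraries and replicate block. Voom and the block without a filter, the single-gene permutation tests of genotype and tissue, the share of testis transcripts and the testis correlation were added after seeing the data. The named-gene rule took the 5 genes most like each of the 3 in brain, of which 2 are printed because identifiers carry no names. Intervals are exact (Clopper-Pearson, 95%) for single libraries and exact conditional binomial for read ratios. They cover counting error only, because they are computed from the read counts alone. No molecular identifiers are given for these reads, so reads copied from the same fragment could not be told apart. Python 3.11.15 with numpy 2.4.6, pandas 2.3.3, scipy 1.17.1 and matplotlib 3.10.9 was used for the rest.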

Additional observations from a re-analysis of the deposited data

How the results depend on the processing

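Over all alternatives, Pomc stayed higher in testis and called in both genotypes, as Avp did in hDNMT3A rats, and no genotype difference of Avp or Pomc in testis was called. In brain, and for Oxt in testis, genotype differences had a test only in the 3 fits without a filter, and none was called there. The Avp tissue difference in wild type, -1.02 and not called, was called with a pseudocount of 1 (-0.75, limma adjusted p = 0.048), with median-ratio scaling (-1.15) and with all 12 libraries fitted together (-1.02, limma adjusted p = 0.026). Leaving out 1 library gave -1.33 to -0.63, called without wild-type brain replicate 3 or wild-type testis replicate 3 (-1.30).

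Values of Oxt, with at most 2 reads a library, moved with the scale. Its genotype difference in brain was -0.64 with a pseudocount of 0.1 and -0.84 by voom, with and without the filter, and in testis 0.60 and 0.76. Its tissue difference in wild type was 1.61 with a pseudocount of 0.1, 0.27 with 1 and 2.13 by voom, and 0.50, now called, without the filter and also with the replicate block. In hDNMT3A rats voom gave 0.53. The interaction was -1.24 with a pseudocount of 0.1 and -1.60 by voom, and the spread over brain libraries 0.67 with a pseudocount of 0.1. Without hDNMT3A testis replicate 1 every testis value of Oxt was 0 and no genotype difference could be had.

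The Pomc genotype difference in testis ran from -0.35 to 0.24 when 1 library was left out, with the sign changed without wild-type replicate 2 (0.025) or hDNMT3A replicate 1. The Avp to Oxt ratio reversed with a pseudocount of 1 (-0.023) and ran from -0.30 to 0.33 without 1 library. The Pomc to Oxt ratio reversed with a pseudocount of 0.1 (0.27) and in reads (0.43), and ran from -0.13 to 0.041. The Pomc to Avp ratio ran from -0.45 to 0.22. The cause of these changes was not tested.

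The labels do not say whether same-numbered samples share a rat, which only brain and testis samples of the same genotype could do. Between these tissues, deviations of same-numbered samples correlated at -0.016 to 0.020 in wild type and 0.0025 to 0.12 in hDNMT3A rats. Between genotypes, which cannot share a rat, they correlated at -0.22 to 0.11. The level set for pairing, all over 0.1, was met in no pair of groups. In testis each sample correlated best with its own number in the other genotype. A replicate block between genotypes therefore groups numbers, not rats. A replicate block took the genes called between genotypes from 16 to 0 in brain (742 at an unadjusted p under 0.05 by limma) and from 84 to 39 in testis, and without the filter to 0 in both. It changed no call of the 3 genes. Other counts were 7 (pseudocount 0.1), 57 (12 libraries) and 2 to 8 (1 library left out) in brain, and 190 (voom), 233 (voom, no filter), 247 (12 libraries) and 20 to 80 in testis.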
